A study of Rattus norvegicus with 6 samples.

Results

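The late granule proteins of the neutrophil were followed through 10 genes, chosen by symbol (Ltf, Camp, Ngp, Lcn2, Mmp8, Olfm4, Mmp9, Retnlg, S100a8 and S100a9) among the 17172 genes of the files. All 10 have a row in the authors' tables, and 9 passed the filter on low counts, the exception being Ltf. The cells came from the hind-leg marrow of 6 ACI rats aged 6 to 8 weeks, with 1 poly(A) library per rat, and had been selected for the stem cell factor receptor c-kit with a biotinylated antibody and streptavidin particles. Of the rats, 3 had received phenylhydrazine (PHZ), an oxidant that destroys circulating red cells, at 100 mg/kg into the peritoneum, and 3 an equal amount of phosphate-buffered saline (PBS), in each case 36 h before the marrow was taken. Each group is labelled as 2 females and 1 male. The series title poses the question as the transcriptome of these cells under stress.

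Neutrophils fill their granules in the order in which they mature. Primary granules, with myeloperoxidase and serine proteases, are filled in promyelocytes, the secondary or specific granules in myelocytes and metamyelocytes, and the tertiary or gelatinase granules in band cells. Secondary granule proteins are made under the transcription factor C/EBP-epsilon, so these genes are commonly used as markers of late neutrophil maturation. S100A8 and S100A9, which form the heterodimer calprotectin, are held in the cytosol of the same cells.

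The libraries held 13196249 to 19492793 expected counts. Kit itself was read in all 6, at 33.9 to 71.6 CPM (counts per 1e6 counts, scaled by edgeR's TMM factors unless said otherwise), and Cd34 did not pass the filter. The purity of the selected cells is not given in the sources used here. PBS replicate 1 stood apart in myeloid markers: its monocyte and macrophage markers summed to 4429 CPM, against 1575 and 1776 CPM in PBS replicates 2 and 3 and 1653 to 2233 CPM in PHZ libraries. Y-linked transcripts went against the sex label in 3 libraries. PBS replicate 1 and PHZ replicate 3, labelled female, held 210 and 162 CPM of them per library total, and PBS replicate 2, labelled male, held 0.0615 CPM. No transcript checks the treatment labels in the same way.

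Together the 10 genes took 1.98% ± 0.647 of all counts in PBS libraries and 0.880% ± 0.274 in PHZ libraries (SD, n = 3). The shares were 1.37%, 2.66% and 1.91% in PBS replicates 1 to 3, and 0.572%, 0.972% and 1.10% in PHZ replicates 1 to 3, so the groups did not overlap. Most of this share was S100a8 and S100a9, whose proteins are cytosolic and which edgeR did not call. Those 2 genes took 1.17% ± 0.374 of all counts in PBS libraries and 0.515% ± 0.166 in PHZ libraries (SD, n = 3). All 9 tested members had a lower estimate in PHZ, by 1.49-fold to 2.43-fold, but only Retnlg and Olfm4 fell at an edgeR adjusted p under 0.05. Of all 13547 tested genes 13.2% were called, 4.17% lower and 8.99% higher in PHZ. A lower estimate in PHZ was found for 52.4% of all tested genes. The median log2 fold change was -1.02 for the 9 members and -0.04 for all tested genes. In bulk RNA, fewer late neutrophil cells among those selected and less of these transcripts per cell cannot be told apart.

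**Figure D1:**
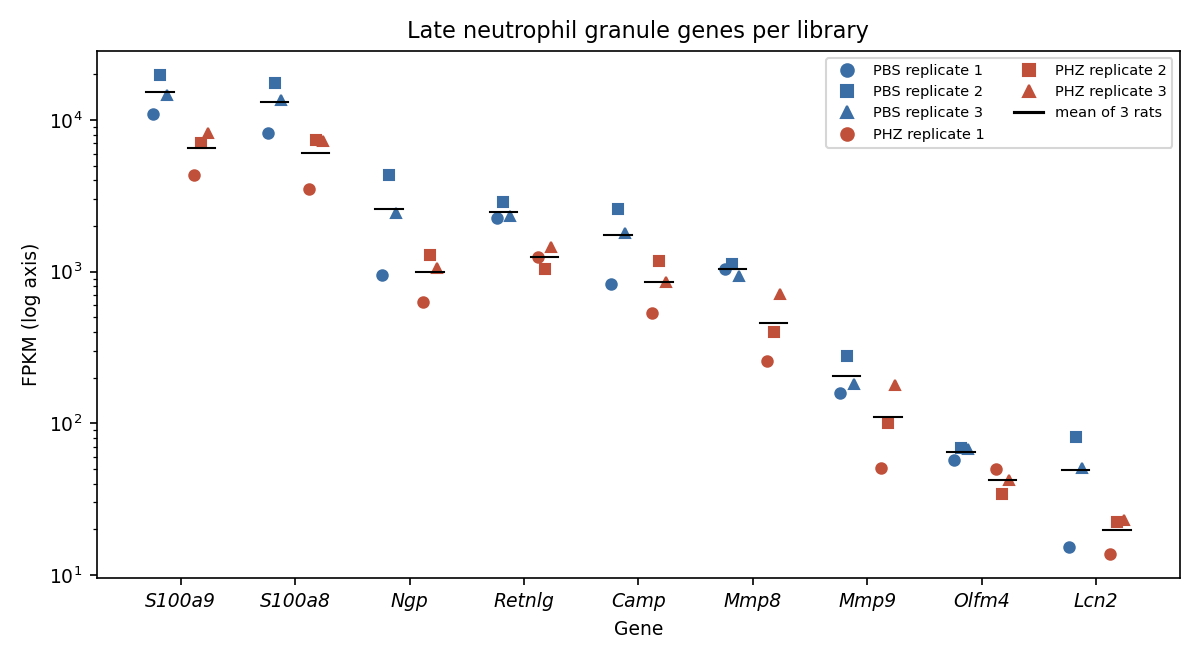
FPKM (fragments per kilobase and per 1e6 fragments, log axis) of the 9 tested members in each of 6 libraries, with replicates as marker shapes and the mean of 3 rats as a line. PBS replicate 1 is the lowest PBS library for each member shown except Mmp8. The gap is wide for Ngp, Camp and Lcn2, while the PBS values of Retnlg and Olfm4 lie close together, at 2245 to 2858 and 57.3 to 68.7 FPKM.

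Levels between members were compared as FPKM, which is per transcript length. S100a9 and S100a8 led, at 15214 ± 4461 and 13142 ± 4703 FPKM in PBS libraries and 6536 ± 1969 and 6076 ± 2224 FPKM in PHZ libraries (SD, n = 3). S100a9 ranked 3 to 4 among all genes in PBS and 7 to 8 in PHZ libraries. In PBS libraries Ngp stood at 2582 ± 1697 FPKM, Retnlg at 2471 ± 337 FPKM, Camp at 1743 ± 889 FPKM and Mmp8 at 1033 ± 92.3 FPKM. The ranges of Ngp, Retnlg and Camp overlapped, as did those of Camp and Mmp8. Mmp9 followed at 205.4 ± 62.0 FPKM, then Olfm4 at 64.5 ± 6.27 FPKM and Lcn2 at 49.1 ± 33.1 FPKM, which overlapped each other.

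Ltf encodes lactotransferrin (lactoferrin), the iron-binding protein that is the classical marker of secondary granules. PBS replicates 1 to 3 held 1, 2 and 0 counts of it, and PHZ replicates 1 to 3 held 0, 3 and 0 counts. No library exceeded 3 counts, the limit that a count of 0 allows (0.154 to 0.227 CPM per library total, for counting error only), so no fold is given. Ngp, Camp and Mmp8, other secondary granule genes, stood at 258.7 FPKM or more in the same libraries, and Ltf at no more than 0.06 FPKM.

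The promoters of Ngp, Retnlg and Ltf are shown because these genes had the largest difference, the smallest p and almost no transcript. They come from RefSeq (assembly GRCr8), which gave a window of 250 bases before to 50 after the start for 8 of the 10 members, and are printed up to the start, 5' to 3' on the gene's strand. Capitals mark matches to TTNNGNAA, a shortened C/EBP motif, on either strand (reverse complement TTNCNNAA). The stretches lie at chr8:119272355-119272604 on the plus strand for Ngp, chr11:65395640-65395889 on the minus strand for Retnlg and chr8:119878094-119878343 on the plus strand for Ltf.
Ngp: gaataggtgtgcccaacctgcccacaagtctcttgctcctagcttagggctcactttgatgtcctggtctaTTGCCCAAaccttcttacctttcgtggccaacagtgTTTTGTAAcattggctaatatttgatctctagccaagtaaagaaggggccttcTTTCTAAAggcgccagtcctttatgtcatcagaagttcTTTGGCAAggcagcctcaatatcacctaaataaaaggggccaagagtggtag
Retnlg: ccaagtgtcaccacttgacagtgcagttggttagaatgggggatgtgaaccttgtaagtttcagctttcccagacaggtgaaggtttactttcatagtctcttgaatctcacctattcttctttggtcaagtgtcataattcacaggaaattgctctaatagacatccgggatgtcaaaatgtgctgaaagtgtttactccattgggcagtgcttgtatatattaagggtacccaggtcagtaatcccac
Ltf: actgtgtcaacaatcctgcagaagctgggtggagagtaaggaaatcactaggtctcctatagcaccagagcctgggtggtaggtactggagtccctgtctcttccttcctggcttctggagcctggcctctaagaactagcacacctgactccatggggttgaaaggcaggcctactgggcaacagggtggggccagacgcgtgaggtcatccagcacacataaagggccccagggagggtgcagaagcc
The whole Ngp window held 5 matches, 4 of them before the start. The windows of Mmp8 and S100a9 held 2 each and that of Lcn2 held 1, while those of Retnlg, Olfm4, Camp and Ltf held no such letters. The motif was thus in 4 of 8 member windows and in 41.3% of all 33469 windows of that length. The PU.1 core GAGGAA, searched on both strands, was in 3 of 8 (Lcn2, S100a9 and Olfm4) and in 27.6% of all windows, and none of those 3 matches overlapped a C/EBP match.

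Retnlg, resistin-like gamma, a small secreted protein of rodent marrow neutrophils, gave the smallest p among the members. It stood at 1046, 1348 and 1189 CPM in PBS replicates 1 to 3 and at 569, 588 and 724 CPM in PHZ replicates 1 to 3. Every PHZ rat was below every PBS rat, and within a group the highest rat was at most 1.29 times the lowest. Retnlg fell 1.90-fold (log2 fold change -0.93 ± 0.18 SE; edgeR adjusted p = 0.0257). Leaving out PBS replicate 2 or 3, or PHZ replicate 2 or 3, ended the call (edgeR adjusted p = 0.107, 0.121, 0.0797 and 0.0528). In the fits without PBS replicate 2 or 3 edgeR called 0 genes of any kind, and without PHZ replicate 2 or 3 it called 266 and 572. Labelled sex as a term in the fit also ended the call of Retnlg (edgeR adjusted p = 0.0514). With the libraries of contradicted sex label removed, 1 PBS and 2 PHZ libraries remained, and the log2 fold change was -1.04 (edgeR adjusted p = 0.475), in a fit where no gene passed. Retnlg has close relatives in the resistin family, and how reads shared between them were divided is not given in the sources used here.

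Olfm4 encodes olfactomedin 4, a glycoprotein of secondary granules that only some neutrophils contain. It stood at 146.7, 175.0 and 190.3 CPM in PBS replicates 1 to 3 and at 123.6, 103.7 and 115.5 CPM in PHZ replicates 1 to 3. The groups were apart by a narrow margin, 146.7 against 123.6 CPM. Olfm4 fell 1.49-fold (log2 fold change -0.58 ± 0.15 SE; edgeR adjusted p = 0.0485), the smallest difference and the smallest standard error of the 9 members. Its call ended when any 1 library other than PBS replicate 1 was left out (edgeR adjusted p = 0.0601 to 0.18). Among these are the fits without PBS replicate 2 or 3, in which edgeR called 0 genes of any kind. Olfm4 was also not called by edgeR with library totals, with no filter or with labelled sex as a term (adjusted p = 0.0803, 0.0612 and 0.0776), nor by limma on log2 FPKM with pseudocounts of 1 and 0.1 (adjusted p = 0.0563 and 0.0579). With the libraries of contradicted sex label removed, the log2 fold change was -0.75 (edgeR adjusted p = 0.493).

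**Figure D2:**
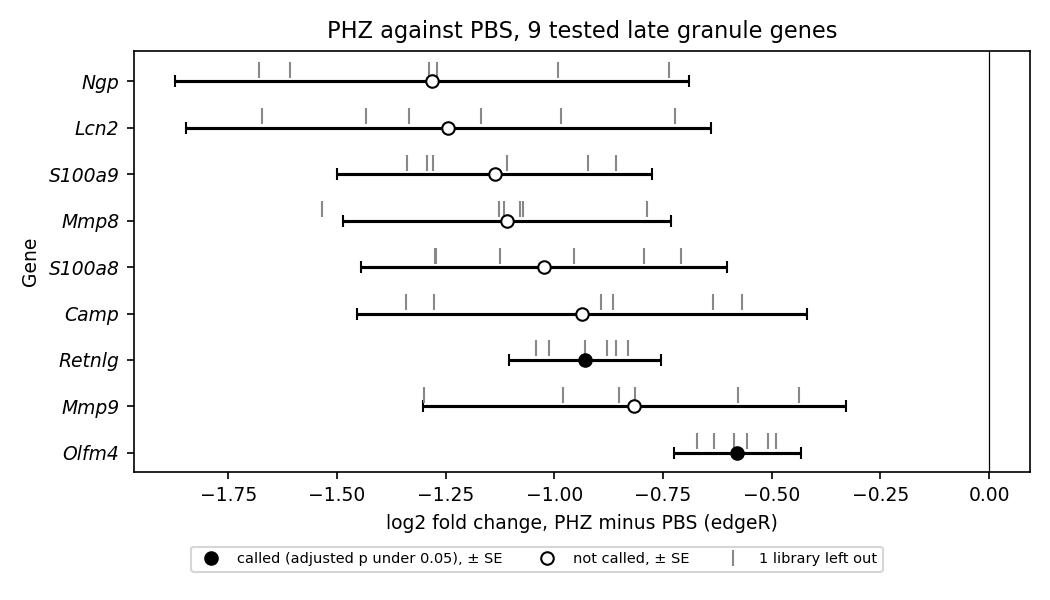
Log2 fold change of PHZ against PBS for the 9 tested members (circles, filled where called, bars ± SE), with grey ticks for the 6 fits that each leave out 1 library. Retnlg and Olfm4 are the filled circles and have the shortest bars, while Ngp and Lcn2 have the largest differences, -1.28 and -1.24, with SEs of 0.59 and 0.60.

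Ngp, neutrophilic granule protein, is a relative of the cathelicidins stored in secondary granules. It stood at 944, 4266 and 2655 CPM in PBS replicates 1 to 3 and at 607, 1521 and 1105 CPM in PHZ replicates 1 to 3. PBS replicate 1 lay below PHZ replicates 2 and 3, and the PBS rats differed among themselves by 4.52 times (log2 fold change -1.28 ± 0.59 SE; edgeR adjusted p = 0.181). Camp, the cathelicidin antimicrobial peptide, stood at 420, 1321 and 995 CPM in PBS and at 260, 714 and 457 CPM in PHZ replicates 1 to 3 (log2 fold change -0.94 ± 0.52 SE; edgeR adjusted p = 0.248). Its libraries fell in the same order within each group as those of Ngp. The FPKM ratio of Camp to Ngp was 0.600 to 0.869 in PBS and 0.805 to 0.910 in PHZ libraries.

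Lcn2 encodes lipocalin 2 (NGAL), which binds iron-carrying bacterial siderophores. It stood at 12.0, 63.7 and 43.6 CPM in PBS replicates 1 to 3 and at 10.4, 21.0 and 19.0 CPM in PHZ replicates 1 to 3 (log2 fold change -1.24 ± 0.60 SE; edgeR adjusted p = 0.201). PBS replicate 1 again lay among the PHZ libraries. Without it the log2 fold change was -1.67 (edgeR adjusted p = 0.0397), the one alternative of 15 in which Lcn2 was called. Its FPKM was a small and steady fraction of that of Ngp, with ratios of 0.0160 to 0.0216 over the 6 libraries.

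Mmp8, neutrophil collagenase, was spread otherwise. It stood at 2408, 2559 and 2367 CPM in PBS replicates 1 to 3, a range of 1.08 times, and at 576, 1096 and 1729 CPM in PHZ replicates 1 to 3. The groups did not overlap, and the difference was not called by edgeR (log2 fold change -1.11 ± 0.38 SE; edgeR adjusted p = 0.0933; DESeq2 adjusted p = 0.0138). Mmp9, gelatinase B, after which the tertiary granule is named, stood at 447, 770 and 559 CPM in PBS and at 138, 338 and 532 CPM in PHZ replicates 1 to 3. PHZ replicate 3 was above PBS replicate 1 (log2 fold change -0.82 ± 0.49 SE; edgeR adjusted p = 0.279). The FPKM ratio of Ngp to Mmp8 was 0.913 in PBS replicate 1, 3.88 and 2.62 in PBS replicates 2 and 3, and 1.49 to 3.24 in PHZ libraries.

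S100a8 stood at 2456, 5131 and 4323 CPM in PBS replicates 1 to 3 and at 1015, 2587 and 2254 CPM in PHZ replicates 1 to 3. PBS replicate 1 was just below PHZ replicate 2 in CPM, though above it in FPKM (log2 fold change -1.02 ± 0.42 SE; edgeR adjusted p = 0.142; DESeq2 adjusted p = 0.046). S100a9 stood at 5183, 9521 and 7725 CPM in PBS and at 1986, 4063 and 4149 CPM in PHZ replicates 1 to 3. Its groups did not overlap (log2 fold change -1.14 ± 0.36 SE; edgeR adjusted p = 0.0805; DESeq2 adjusted p = 0.00819). The FPKM ratio of S100a8 to S100a9 was 0.746 to 0.925 in PBS and 0.806 to 1.05 in PHZ libraries. DESeq2 called 5 of the 9 members lower (Mmp8, Olfm4, Retnlg, S100a8 and S100a9), where it called 10.2% of all its genes lower. With limma on log2 FPKM, 3 were called lower (Mmp8, Retnlg and S100a9) at either pseudocount. Of all 12174 genes in these limma fits, 566 were called lower with a pseudocount of 1 and 484 with 0.1.

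The groups did not overlap for 4 of the 9 members, Retnlg, Olfm4, Mmp8 and S100a9, all lower in PHZ. Of all tested genes 41.7% did not overlap, 19.2% being lower in PHZ. For the other 5 members PBS replicate 1 lay below at least 1 PHZ library. Without that library, a comparison added after the values were seen, all 9 members were apart and lower in PHZ, as were 28.1% of all tested genes. PBS replicate 1 was the PBS library that overlapped for these 5 members, so the 9 of 9 followed from leaving it out. The share over all genes was not picked in this way, and the 2 are not a test of the members. PBS replicate 2 was the highest library for 8 of 9 members and PHZ replicate 1 the lowest for 8 of 9, the exception each time being Olfm4. PBS replicate 1 also had the lowest Mpo, 285.5 CPM against 1710 and 1662 CPM in the other PBS libraries. Beyond leaving it out, the part of that library's composition in the members' values was not tested.

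**Figure D3:**
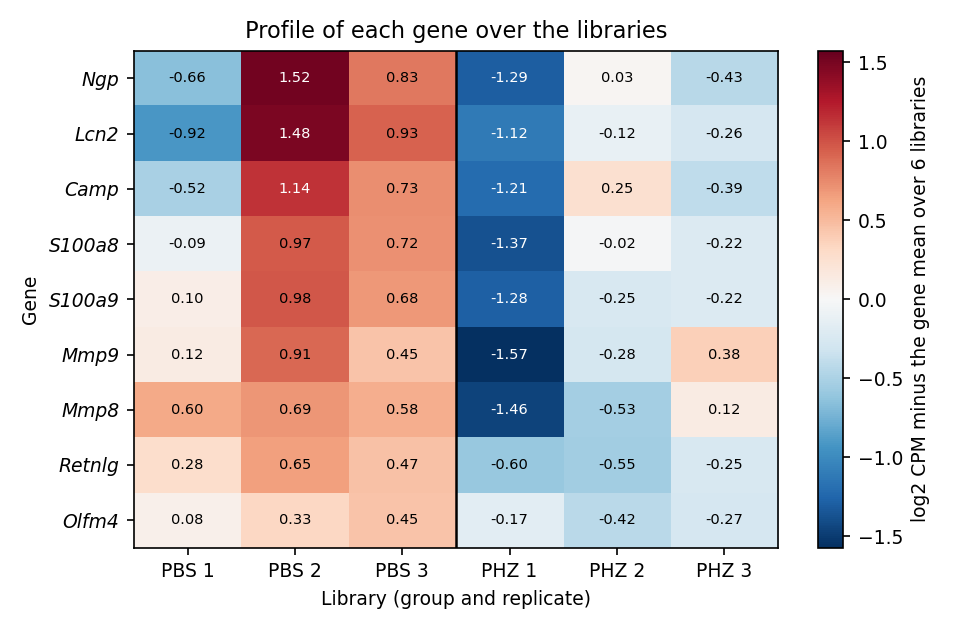
Log2 CPM of each tested member in each library, minus the gene's mean over 6 libraries, with PBS libraries left and PHZ libraries right of the line. In PBS replicate 1 Ngp, Lcn2 and Camp sit at -0.66, -0.92 and -0.52, while Mmp8 sits at 0.60, close to its 0.69 and 0.58 in the other PBS libraries.

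The authors' deposited table marks 6 of the 10 as down in PHZ (Camp, Ngp, Lcn2, Mmp8, S100a8 and S100a9), as it does 6.89% of all its genes. The same table, the authors' deposited table, leaves Retnlg and Olfm4 unmarked, with log2 ratios of -0.99 and -0.62. No gene that the authors' deposited table marks has a log2 ratio under 1 in size. None of the 6 marked members was called by edgeR, and neither of the 2 that edgeR called is marked in the authors' deposited table.

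Of 30 other late neutrophil genes 24 were tested, and Slpi, Il1r2 and Lcp1 fell while 21 were not called by edgeR. In edgeR 20 of the 24 had an unadjusted p under 0.05, as did 4626 of all 13547 tested genes. DESeq2 called 17 of the 24, all lower, where it called 10.2% of all its genes lower. All 24 had a lower estimate in PHZ, as did 52.4% of all tested genes, with a median log2 fold change of -0.82. This direction was not particular to late neutrophil genes. All 13 tested monocyte and macrophage markers and all 11 tested eosinophil, basophil and mast cell markers were also lower in estimate. The same held for all 11 B lineage, 11 T and NK lineage and 6 megakaryocyte markers tested, and for 12 of 14 primary granule genes. The 10 tested erythroid markers all had a higher estimate. Slpi, secretory leukocyte protease inhibitor, which restrains neutrophil elastase, averaged 82.1 ± 7.20 CPM in PBS rats against 31.9 ± 7.78 CPM in PHZ rats (SD, n = 3) and fell 2.58-fold (edgeR adjusted p = 0.019). Il1r2, the decoy receptor for interleukin 1, averaged 208.3 ± 29.3 CPM in PBS rats against 66.9 ± 25.9 CPM in PHZ rats (SD, n = 3) and fell 3.12-fold (edgeR adjusted p = 0.0269). Lcp1, the actin-bundling protein plastin 2, which other white cells also make, fell 1.62-fold (edgeR adjusted p = 0.0369). The call of Lcp1 ended with any 1 library left out (edgeR adjusted p = 0.0522 to 0.151), with library totals (edgeR adjusted p = 0.0673) and with labelled sex as a term (edgeR adjusted p = 0.0597). That of Il1r2 ended without PHZ replicate 2 or 3 (edgeR adjusted p = 0.0822 and 0.0542) and with labelled sex as a term (edgeR adjusted p = 0.0511), and that of Slpi without PHZ replicate 2 (edgeR adjusted p = 0.0607). Both also lost it without PBS replicate 2 and without PBS replicate 3. In the fits without PBS replicate 2 or 3 edgeR called 0 genes of any kind, with 3325 and 3291 at an unadjusted p under 0.05.

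Other genes of late neutrophils named here were not called. Csf3r, the receptor for granulocyte colony-stimulating factor, stood at 467, 596 and 570 CPM in PBS replicates 1 to 3 and at 196, 213 and 466 CPM in PHZ replicates 1 to 3 (edgeR adjusted p = 0.128). Cd177, a surface glycoprotein also kept in secondary granules, stood at 232.4, 887 and 718 CPM in PBS and at 212, 350 and 393 CPM in PHZ replicates 1 to 3 (edgeR adjusted p = 0.238). Itgam, the integrin chain CD11b, had a log2 fold change of -0.71 (edgeR adjusted p = 0.138), and Cybb, the catalytic subunit of the phagocyte oxidase, had -0.37 (edgeR adjusted p = 0.285). Both are made by monocytes and macrophages too.

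Of 15 primary granule genes 14 were tested, with a median log2 fold change of -0.36. Mpo, the peroxidase, and Elane, Prtn3 and Ctsg, the serine proteases, had log2 fold changes of -0.63, -0.80, -0.82 and -0.98 (edgeR adjusted p = 0.517, 0.416, 0.413 and 0.312). Without PBS replicate 1 Mpo was called, at a log2 fold change of -1.10 (edgeR adjusted p = 0.0444).

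Of 14 granulocyte regulators 13 were tested and edgeR called 0 of them, with 4 at an unadjusted p under 0.05 and 3 called by DESeq2. Over all genes 4626 of 13547 had an unadjusted p under 0.05 in edgeR, and DESeq2 called 3389 of 14385 in either direction. Cebpe, the C/EBP factor of the secondary granule programme, stood at 30.4, 64.3 and 42.4 CPM in PBS replicates 1 to 3 and at 29.1, 33.2 and 29.6 CPM in PHZ replicates 1 to 3 (log2 fold change -0.58; edgeR adjusted p = 0.18). PBS replicate 1 lay among the PHZ libraries here too. Gfi1, a repressor needed for neutrophil differentiation, had a log2 fold change of -0.72 (edgeR adjusted p = 0.153), and Cebpa, which acts at the entry to the granulocyte lineage, had -0.44 (edgeR adjusted p = 0.231). Spi1, which encodes PU.1, had -0.56 with groups that did not overlap (edgeR adjusted p = 0.0681).

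Of 16 receptors, binding partners and inhibitors of the proteins 13 were tested, and Slc22a17 and Cap1 fell. Slc22a17, a receptor for lipocalin 2, averaged 18.1 ± 4.38 CPM in PBS rats against 8.04 ± 0.305 CPM in PHZ rats (SD, n = 3) and fell 2.25-fold (edgeR adjusted p = 0.0238). Cap1, an actin regulator that also binds resistin, fell 1.58-fold (edgeR adjusted p = 0.049), a call that ended with any 1 library left out (edgeR adjusted p = 0.0589 to 0.163), with library totals, with no filter and with labelled sex as a term (edgeR adjusted p = 0.0655, 0.0629 and 0.0836). That of Slc22a17 ended without PBS replicate 2 or 3 or PHZ replicate 2 or 3 (edgeR adjusted p = 0.0995, 0.113, 0.0737 and 0.0578). Tlr4, a receptor of S100A8 and S100A9, stood at 24.1, 12.6 and 11.7 CPM in PBS replicates 1 to 3 and at 9.53, 7.06 and 13.3 CPM in PHZ replicates 1 to 3 (edgeR adjusted p = 0.223). Timp1, an inhibitor that binds MMP9, was low, at 3.14 to 8.92 CPM (edgeR adjusted p = 0.792). With the libraries of contradicted sex label removed, a fit in which edgeR called 0 genes of any kind (1480 at an unadjusted p under 0.05), the log2 fold changes were -0.92 for Slc22a17, -0.75 for Cap1, -1.54 for Slpi, -2.06 for Il1r2 and -0.80 for Lcp1.

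**Figure D4:**
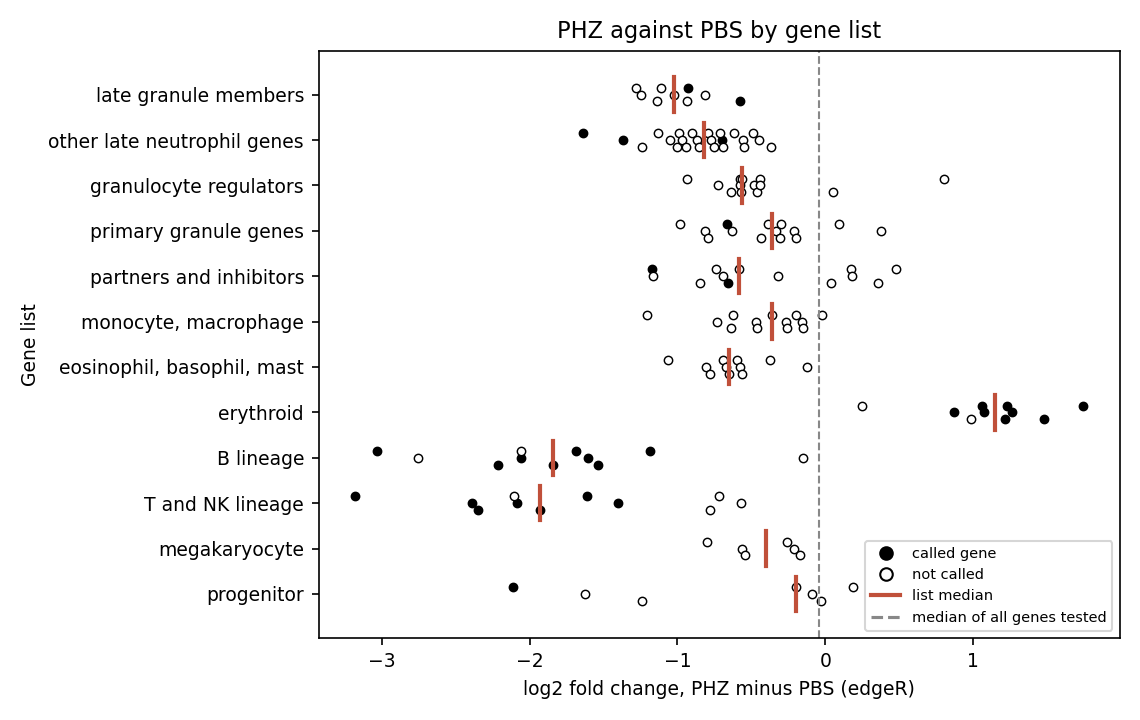
Log2 fold change of PHZ against PBS for each tested gene (circles, filled where called) in 12 gene lists, with the list median in red and the median of all tested genes dashed. The members' median of -1.02 lies between those of the other late neutrophil genes, -0.82, and the B lineage markers, -1.84, and the erythroid median lies on the other side, at 1.15.

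Markers of other marrow cells moved as well, and their part in the members' values was not tested. Of 12 erythroid markers 10 were tested and 8 rose, among them Tfrc, the transferrin receptor, 3.35-fold and Klf1, the erythroid transcription factor, 2.79-fold. They summed to 5363 to 8016 CPM in PBS and 10266 to 16635 CPM in PHZ libraries. The largest part of these sums was Slc4a1, which was not called (edgeR adjusted p = 0.0537). It stood at 2579 to 3853 CPM in PBS and 4513 to 7384 CPM in PHZ libraries. Of 12 B lineage markers 11 were tested and 8 fell, with sums of 974 to 1363 CPM in PBS and 513 to 579 CPM in PHZ libraries and Cd79a not listed. Cd22, which was not called (edgeR adjusted p = 0.765), made up 183 to 250 CPM in PBS and 114 to 275 CPM in PHZ libraries. Of 12 T and NK lineage markers 11 were tested and 7 fell, with sums of 355 to 571 CPM in PBS and 231.6 to 260.6 CPM in PHZ libraries. Much of these sums was Cd4, which was not called. It stood at 457, 150 and 162 CPM in PBS replicates 1 to 3 and at 138 to 170 CPM in PHZ libraries. Cd3e, which fell, stood at 2.92 to 9.56 CPM in PBS and 0.332 to 1.06 CPM in PHZ libraries.

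Of 14 monocyte and macrophage markers 13 were tested and edgeR called 0, with 1 at an unadjusted p under 0.05 and 1 called by DESeq2. Csf1r, the receptor that defines these cells, had a log2 fold change of -0.20, which turned to 0.085 without PBS replicate 1. Of 12 eosinophil, basophil and mast cell markers 11 were tested and edgeR called 0, with 3 at an unadjusted p under 0.05 and 3 called by DESeq2. They summed to 12095 to 16627 CPM in PBS and 6871 to 11215 CPM in PHZ libraries, with Ear1 not listed. Of 10 megakaryocyte markers 6 were tested and edgeR called 0, with 1 at an unadjusted p under 0.05 and 1 called by DESeq2. Over all genes 4626 of 13547 had an unadjusted p under 0.05 in edgeR, and DESeq2 called 3389 of 14385 in either direction. Of 10 progenitor markers 7 were tested, and Procr, the endothelial protein C receptor, fell 4.33-fold (edgeR adjusted p = 0.0243). Procr was low, at 9.78 to 15.2 CPM in PBS and 1.52 to 3.68 CPM in PHZ libraries. Its call ended without PBS replicate 2 or 3 or PHZ replicate 2 or 3 (edgeR adjusted p = 0.0996, 0.118, 0.0715 and 0.0546). Kit had a log2 fold change of -0.09.

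Among 8878 other genes with a symbol and a mean log2 CPM of 2 or more, the 10 most like the members' mean profile were ranked by Pearson's r over the 6 libraries. These libraries share the difference between groups, and r is given as a description. Arrb2, beta-arrestin 2, came first at r = 0.998, followed by Pglyrp1, a peptidoglycan-binding protein of neutrophil granules, at 0.995 and Rtp3 at 0.995. Septin5 (stored as 5-Sep) had 0.994, Ckap4, Slc32a1, Dhrsx and Kctd1 had 0.992, Gpatch2l had 0.989 and Shkbp1 had 0.988. None of these 10 was called by edgeR, and their log2 fold changes ran from -1.73 for Rtp3 to -0.15 for Gpatch2l.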

How the data were processed

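Poly(A) RNA of c-kit+ marrow cells was sequenced, 1 library per rat. For each gene the authors deposited an expected count (an estimate that may be fractional) and an FPKM value, as the file headers name them. HISAT, GATK, RSEM and rn6 appear in the submitters' processing notes, with neither roles nor versions, and the settings were not given in the sources used here. Unlisted genes were set to 0. The authors' deposited comparison gives group means, a log2 ratio and a score named Probability.

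Expected counts were rounded and tested with edgeR 4.0.16 in R 4.3.3 (TMM, filterByExpr, robust quasi-likelihood F test, treatment as the only term, 4 residual degrees of freedom), with Benjamini-Hochberg adjustment over 13547 genes and a threshold of 0.05. A standard error was obtained as the size of the log2 fold change divided by the root of F. The code was tested on simulated data. Alternatives were upper-quartile scaling, library totals, no filter, DESeq2 1.42.0, limma 3.58.1 on log2 FPKM (pseudocount 1 or 0.1; FPKM of at least 1 in 3 libraries), each library left out, the replicate number as a block, labelled sex as a term, and removal of libraries whose Y-linked level (10 CPM as the limit) contradicts that label.

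The members and lists were chosen with earlier results of these data known. Genes named are the members, up to 4 called genes per list and direction by smallest p, a fixed set of regulators and markers, and the 10 most alike in profile. Slc4a1, Cd22 and Cd4 are named for their part in the sums of their lists. Of the other marrow lists, only some of these are given. Protein sequences were not used here, and results of some list genes are not reported here.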

Additional observations from a re-analysis of the deposited data

How the results depend on the processing

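All 9 tested members had a lower estimate in PHZ in each of 15 alternatives, while calls moved. Over the members' values, 108 stayed on their side of the threshold, 19 lost a call and 8 gained one. The causes were not tested, except that fits without a library have fewer samples.

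Over all genes 1783 were called, 565 of them lower in PHZ. With library totals 1015 were called, with DESeq2 3389 (1465 lower), with upper-quartile scaling 1619 (668 lower), with labelled sex as a term 928, and with 1 library left out 0 to 1744. Without the libraries of contradicted sex label 0 genes passed in edgeR (1480 had an unadjusted p under 0.05). Of the members 2 were called. The count was 1 with library totals, 1 with no filter, 5 with DESeq2 and 0 to 3 with 1 library left out. It was 0 in edgeR with labelled sex as a term (6 at an unadjusted p under 0.05) and 0 without the libraries of contradicted sex label (2 at an unadjusted p under 0.05). The other lists had 30 calls, and 59 with DESeq2, 17 with labelled sex as a term, 0 to 46 with 1 library left out and 0 without the libraries of contradicted sex label (44 at an unadjusted p under 0.05). Members whose groups did not overlap numbered 4, and 4 to 9 with 1 library left out. The 9 came without PBS replicate 1, and without any other library the number was 4 or 5.

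With the replicate number as a block 0 genes passed in edgeR (4641 had an unadjusted p under 0.05), 0 of the members (9 of 9 at an unadjusted p under 0.05, adjusted p = 0.0592 to 0.135) and 0 in the other lists (70 at an unadjusted p under 0.05). Same-numbered libraries share a number and the labelled sex, and no source says that they share more. They correlated at 0.213, 0.0573 and 0.0045 in their deviations from the group means, and not every library correlated best with its own number.

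Log2 fold changes of 3 genes that were not called changed sign. That of Csf1r was 0.085 without PBS replicate 1 and 0.054 without PHZ replicate 2, within -0.44 to 0.085 over libraries left out. That of Kit was 0.0079 without PBS replicate 2 and 0.16 without PHZ replicate 1, within -0.34 to 0.16. That of Timp1 was -0.017 and -0.040 in limma with pseudocounts of 1 and 0.1 and -0.39 without PHZ replicate 1, within -0.39 to 0.44. Ltf could not be compared at this depth.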

Other observations

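Rtp3, receptor transporter protein 3, one of the genes most like the members in profile, is the next protein-coding gene to Ltf on chromosome 8 in the RefSeq annotation. Rtp3 was read at 22.6, 81.0 and 45.1 FPKM in PBS replicates 1 to 3 and at 7.14, 14.3 and 21.4 FPKM in PHZ replicates 1 to 3, while Ltf beside it held 0 to 3 counts per library. The Rtp3 groups did not overlap, as for 41.7% of all tested genes, but the margin was narrow. PBS replicate 1 held 45.5 CPM and PHZ replicate 3 held 45.2 CPM. The Rtp3 difference was not called (log2 fold change -1.73; edgeR adjusted p = 0.0972). Rtp3 was picked by its likeness to the members over these same libraries, so its separation is a description only. This neighbour was looked up after its values were seen. Camp and Ngp lie on the same chromosome with 9 protein-coding genes between them, and among the genes between them 7 were tested and 1 was called, with a median log2 fold change of -0.04. S100a8 and S100a9 are direct neighbours on chromosome 2.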
